A study of Mus musculus with 4 samples.

Results

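Immediate early genes and heat shock genes were taken as a list of 34 gene symbols, 23 of early response genes and 11 of heat shock genes. Each was represented where the platform annotation gives a probe set that single symbol. That rule found 32 of the 34 genes, out of 19938 genes measured in the same way. Hsp90ab1 had no such probe set, and Hspa1b was covered only by a probe set shared with Hspa1a. The list was chosen by function, with earlier results of these data known.

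These genes form the part of the response to disturbance that a cell can switch on fastest. Immediate early genes are transcribed within minutes of a growth signal, injury or stress, without new protein synthesis, and many of their products are transcription factors or brakes on the kinases that induced them. Heat shock genes encode chaperones that refold damaged proteins. Some are nearly silent until heat shock factor 1 is activated, while others are made at high level in every cell. Removal and handling of tissue can induce genes of both kinds.

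Affymetrix Mouse Gene 1.0 ST arrays measured RNA of cells cut by laser capture from frozen stomach sections of adult mice with a C57BL/6 strain background. There were 4 groups with 1 array each: mucous neck cells of wild type mice, mucous neck cells of MIST1 knockout (here MIST1-null) mice, zymogenic (chief) cells of wild type mice and zymogenic cells of MIST1-null mice. The knockout gene, Bhlha15, encodes the transcription factor MIST1, which shapes secretory cells. Zymogenic cells were recognised by their position below the lectin-stained neck cells and by not looking like parietal cells. The design text counts 4 wild-type and 5 MIST1-null mice. Each array held RNA pooled over several dissections and several animals to about 100 ng and then amplified, so an array carries no spread between animals. Sex, exact age, the design of the null allele and the time from death to freezing were details not given in the sources used here.

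Since a group is 1 array, every difference below is between single arrays, without replicates, and no test was run. Values are array intensities on a linear scale, always listed for wild-type neck, MIST1-null neck, wild-type zymogenic and MIST1-null zymogenic cells in that order. Differences are on the log2 scale, where 1 is 2-fold. A gene counted as detectable in an array at an intensity of 43.7 or more, the median of all single-gene probe sets, and as detectable in a comparison where the higher value reached it. The level was set by size, since no background was measured, and values under it are not firm. Levels of different genes are not compared, since probes differ in brightness.

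The labels were checked against markers, not all of which followed them. Muc6, the gland mucin of neck cells, read 2511 and 2980 in neck and 26.7 and 20.7 in zymogenic cells, and Bhlha15 read 59.7, 20.2, 149.8 and 22.0. Against the labels, the pepsinogen gene Pga5, listed as a zymogenic product, read 1350 and 1884 in neck and 31.0 and 20.4 in zymogenic cells, and the neck marker Aqp5 read 65.7 and 62.5 in neck and 95.5 and 92.0 in zymogenic cells. Cell types were not separated by every product, since the pepsinogen gene Pgc of zymogenic cells read 8672 to 10638 in all 4 arrays. The summed intensity of 9 parietal cell markers was 5227 in wild-type zymogenic cells against 9561 to 11036 in the other arrays. Fibroblast and smooth muscle markers summed to 410.1 to 620.2 in neck and 1471 to 1745 in zymogenic cells over 10 genes, with 8, 4, 8 and 8 of them detectable. Immune markers summed to 355.5 to 407.6 in neck and 587.9 to 717.6 in zymogenic cells over 11 genes, with 4, 3, 8 and 7 detectable, and endocrine markers to 3800 to 5869 and 8867 to 12834 over 7 genes. No marker was listed at 0. The part of these cells in the differences below was not tested, and in pooled cells a change in the number of cells of a type cannot be told apart from a change in RNA per cell.

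Of the 32 measured members, 16 were detectable in all 4 arrays, 11 in 1 to 3 arrays and 5 in none. Of the 23 early response genes, 10 were detectable in all arrays and 3 in none, namely Junb, Socs3 and Gadd45b. Fos, the archetype of the class, read 69.0, 44.4, 58.9 and 62.2, close to the detection level throughout. Egr1, a zinc finger factor that responds to nearly every growth signal, read 37.4, 24.9, 51.9 and 33.4 and was detectable in wild-type zymogenic cells only.

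**Figure D1:**
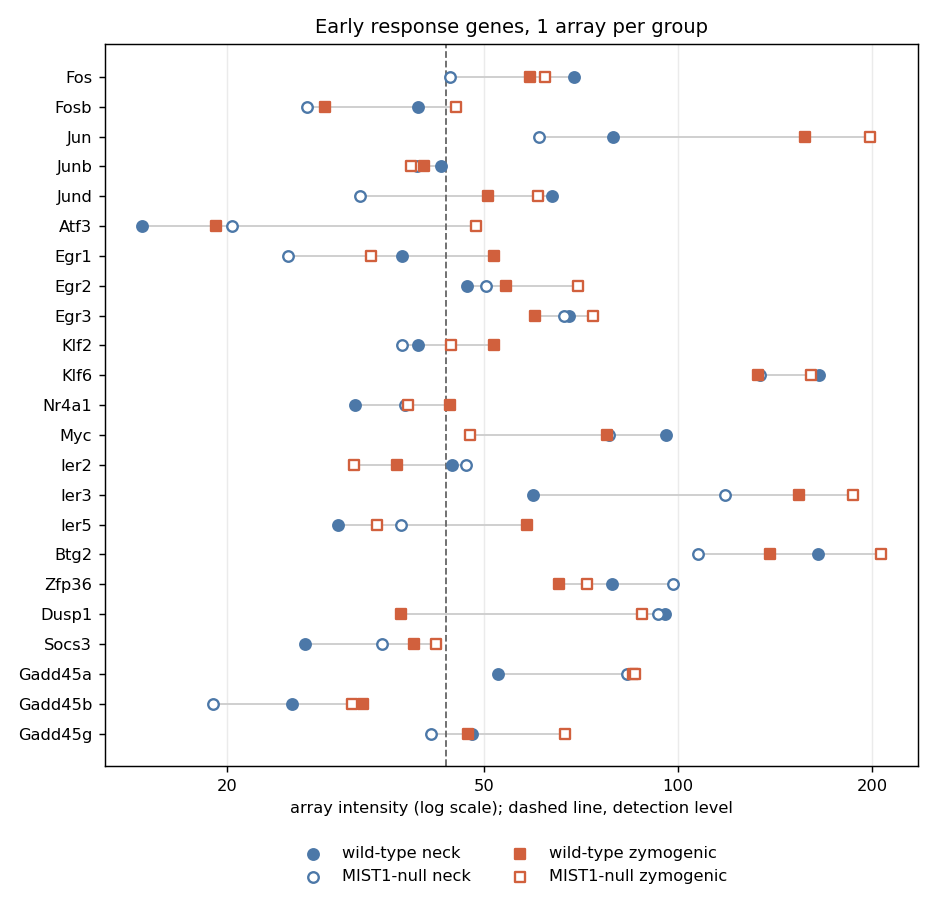
Array intensity (log scale) of the 23 early response genes, with neck cells as circles, zymogenic cells as squares, wild-type arrays filled and MIST1-null arrays open; each point is 1 array and grey lines join the lowest and highest. The dashed line is the detection level of 43.7, Jun and Ier3 have both squares to the right of both circles, and Dusp1 has the wild-type zymogenic array alone to the left.

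Among the AP-1 genes, which encode the paired Fos and Jun proteins that bind DNA as dimers, Jun stood out by cell type. Jun read 79.2 and 61.0 in neck cells and 157.5 and 199.0 in zymogenic cells, so the values of the cell types did not overlap. The difference of zymogenic from neck cells was 0.99 in wild-type and 1.71 in MIST1-null mice. With a pseudocount of 32 added to every intensity these were 0.77 and 1.31. The genotype differences of Jun were smaller, at -0.38 in neck and 0.34 in zymogenic cells.

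The other AP-1 genes did not share that order. Fos differed by -0.23 in wild-type and 0.49 in MIST1-null mice. Jund, a family member that is expressed in most resting cells, read 63.8, 32.1, 50.8 and 60.6, with the MIST1-null neck array alone under the detection level. Fosb read 39.5, 26.6, 28.3 and 45.4, and only the MIST1-null zymogenic array reached the level. Junb was between 38.5 and 43.0 in all arrays. Atf3, a stress-induced partner of Jun, read 14.7, 20.4, 19.2 and 48.7. Its MIST1-null zymogenic value was the only detectable one, and the differences of 1.34 from wild-type zymogenic and 1.26 from MIST1-null neck cells shrank to 0.66 and 0.62 with the pseudocount. In MIST1-null mice Fosb, Jund and Atf3 reached the detection level in the zymogenic array only, so the sign of their cell type difference was set by that level and their number carries no weight.

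The zinc finger and nuclear receptor factors differed by less than 2-fold. Egr1, given above, differed by -0.64 by genotype in zymogenic cells and by 0.47 by cell type in wild-type mice. Egr2 read 47.1, 50.4, 54.1 and 70.1 and Egr3 read 67.8, 66.7, 60.0 and 74.0. Klf6, a Kruppel-like factor induced by injury, read 165.6, 134.1, 133.0 and 160.9, with zymogenic minus neck differences of -0.32 in wild-type and 0.26 in MIST1-null mice. Klf2, best known from endothelium, read 39.6, 37.4, 51.8 and 44.4, and the orphan receptor Nr4a1 read 31.5, 37.7, 44.3 and 38.2. Endothelial markers summed to 510.4, 383.6, 501.2 and 488.2 over 9 genes, of which 3 or 4 were detectable per array. None of the 7 genes of this group was 2-fold apart in a comparison where it was detectable.

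Myc, a growth factor-induced driver of ribosome production and proliferation, ran against Jun. It read 95.9 and 78.2 in neck cells and 77.7 and 47.6 in zymogenic cells, without overlap but with a gap of under 1 unit of intensity between the nearest values. The differences of zymogenic from neck cells were -0.30 in wild-type and -0.72 in MIST1-null mice. The genotype difference was -0.29 in neck and -0.71 in zymogenic cells.

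Among genes that act as brakes or modifiers of the early response, Ier3 and Dusp1 differed most. Ier3, a small protein that modulates survival signalling, read 59.6 and 118.4 in neck cells and 154.4 and 187.0 in zymogenic cells. The cell types did not overlap, and the differences of zymogenic from neck cells were 1.37 in wild-type and 0.66 in MIST1-null mice, or 1.03 and 0.54 with the pseudocount. The wild-type neck array was the low one, and the genotype difference in neck cells was 0.99, just under 2-fold, against 0.28 in zymogenic cells.

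Dusp1, the phosphatase that switches off stress-activated MAP kinases, read 95.5, 93.2, 37.3 and 88.1. The wild-type zymogenic array alone was low and lay under the detection level, while the other 3 were alike. Dusp1 was thus lower in wild-type zymogenic than in wild-type neck cells by a log2 difference of -1.36 and higher in MIST1-null than in wild-type zymogenic cells by 1.24, and both contrasts rest on that 1 array. They were -0.88 and 0.79 with the pseudocount. The other differences were -0.03 for genotype in neck cells and -0.08 for cell type in MIST1-null mice. The same array had the lowest sum of parietal markers, as given above.

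Btg2, an antiproliferative gene induced by p53 and growth factors, read 164.9, 107.4, 139.1 and 207.0, with the cell type difference at -0.25 in wild-type and 0.95 in MIST1-null mice. Zfp36, whose product degrades cytokine mRNAs, read 79.1, 98.4, 65.5 and 72.4, and both neck values lay above both zymogenic values by a small margin. Ier2 read 44.7, 47.0, 36.7 and 31.5 in the same order, the zymogenic values being under the detection level. Ier5, a regulator of heat shock factor 1, read 29.7, 37.2, 58.4 and 34.1 and was detectable in wild-type zymogenic cells only. Socs3, a feedback inhibitor of cytokine receptors, stayed at 42.2 or less with its better probe set, and another probe set ordered the arrays differently, at 39.2, 28.8, 49.6 and 24.6.

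The 250 bases upstream of the RefSeq start sites of Dusp1 and Btg2 each hold the letters TGACGTCA, the cyclic AMP response element through which CREB family factors act on many early genes. They are shown because the letters were found in them. Dusp1 passed 2-fold by cell type in wild-type mice and by genotype in zymogenic cells, while Btg2 stayed under 2-fold in every comparison. The stretches below are from build GRCm38.p6, at chr17:26508578-26508645 for Dusp1 and chr1:134079284-134079351 for Btg2, both on the minus strand and written 5′ to 3′ with the match in capitals.
Dusp1: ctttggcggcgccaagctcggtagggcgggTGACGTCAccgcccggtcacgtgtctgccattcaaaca
Btg2: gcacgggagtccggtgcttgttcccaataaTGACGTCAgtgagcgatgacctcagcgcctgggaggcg
The matches start 143 and 166 bases before the start sites. Of 27 member promoters searched on both strands these were the only 2 with it, and 1.60% of 27025 promoters of the same length held it. Among the same 27, the AP-1 letters TGANTCA were found only for Bag3 (6.85% of all), and a CArG box, the site of serum response factor, only for Zfp36 (1.41% of all). Egr1, Egr3, Ier2, Myc, Hspa8, Hsp90aa1 and Hsp90ab1 were not searched. Sites farther upstream than 250 bases would be missed, so a lack of a match does not show that a gene lacks the site. Dusp1 and Btg2 shared these letters and did not share an order of arrays, since Btg2 was lowest in MIST1-null neck cells.

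The Gadd45 genes encode small stress sensors that bind cell cycle and MAP kinase regulators. Gadd45a read 52.5, 83.5, 85.2 and 85.9, so the wild-type neck array was low and the others were alike. That is the same array that was lowest for Ier3. Gadd45g read 47.9, 41.4, 47.3 and 66.9, highest in MIST1-null zymogenic cells. Gadd45b was at 32.5 or less in every array.

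Of the 9 heat shock genes measured, 7 were detectable in at least 1 array. Dnajb1, the DNAJ partner of inducible HSP70, read 28.7, 13.9, 28.9 and 17.7, and the small heat shock gene Hspb1 read 38.1, 27.5, 23.6 and 34.2, all under the detection level. Bag3, which hands HSP70 clients to autophagy and is induced with it, read 114.8, 109.4, 122.7 and 105.9, a range of 0.21 on the log2 scale or less in each comparison. Hsph1, the HSP110 nucleotide exchange factor, read 295.0, 413.8, 340.5 and 430.4, with both MIST1-null arrays above both wild-type arrays and genotype differences of 0.49 in neck and 0.34 in zymogenic cells.

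**Figure D2:**
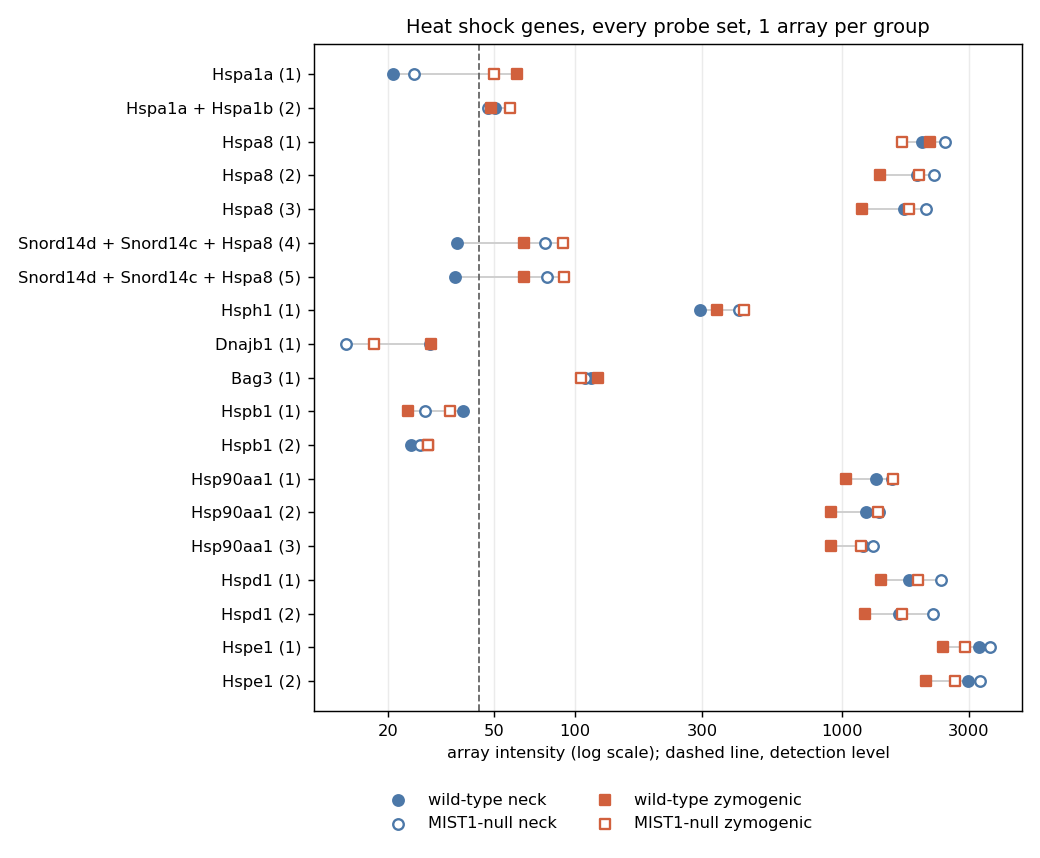
Array intensity (log scale) of every probe set of the heat shock genes, numbered within each gene, including those the annotation shares with other genes (Hspa1a with Hspa1b, and Hspa8 with Snord14 genes); symbols are as in the plot of early response genes. The wild-type zymogenic array (filled square) is the lowest in 9 of 10 single-gene probe sets of Hspa8, Hsp90aa1, Hspd1 and Hspe1, the exception being the first of Hspa8.

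Hspa1a, the main inducible HSP70, was the heat shock member with the widest cell type difference. It read 20.8 and 25.1 in neck cells and 60.6 and 49.6 in zymogenic cells, so only the zymogenic arrays were detectable. Hspa1a thus entered both cell type comparisons only through the arrays where it was high, and the detection level set the sign. The differences were 1.55 in wild-type and 0.99 in MIST1-null mice, and 0.81 and 0.52 with the pseudocount. The probe set that the annotation gives to both Hspa1a and Hspa1b did not show this, at 50.3, 47.4, 48.7 and 57.2 with cell type differences of -0.05 and 0.27. Hspa1a and Hspa1b are near-identical neighbouring copies whose upstream 250 bases agree at 247 positions, so reads of either by array are uncertain.

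The upstream windows of several members hold paired units of the heat shock element, which is built from GAA and its complement TTC. The letters GAANNTTC were found upstream of 5 of 27 member promoters (Hspa1a, Hspa1b, Hspb1, Hspe1 and Jun) against 6.79% of all promoters, and TTCNNGAA upstream of 2 (Hspe1 and Hsph1) against 7.18%. Both are their own reverse complement, and in Hspe1 they overlap. Stretches of Hspa1a, Hsph1, Hspe1 and Jun are shown because these members hold such letters and their cell types or genotypes did not overlap, with matches in capitals, at chr17:34972223-34972290 (minus strand), chr5:149636337-149636399 (minus), chr1:55088029-55088106 (plus) and chr4:95052313-95052380 (minus) of GRCm38.p6.
Hspa1a: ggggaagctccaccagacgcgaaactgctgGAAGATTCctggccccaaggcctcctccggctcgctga
Hsph1: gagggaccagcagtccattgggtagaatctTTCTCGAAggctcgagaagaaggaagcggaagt
Hspe1: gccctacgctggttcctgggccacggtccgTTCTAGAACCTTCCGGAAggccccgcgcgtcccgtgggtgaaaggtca
Jun: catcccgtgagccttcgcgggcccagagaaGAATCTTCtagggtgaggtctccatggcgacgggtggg
A match of letters is a description of these windows and not evidence of a bound factor. The 4 genes carrying them did not share an order of arrays. Hspa1a and Jun were higher in zymogenic cells, Hspe1 was higher in neck cells, and Hsph1 was higher in MIST1-null mice.

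Hspd1 and Hspe1 encode the barrel and the lid of the mitochondrial chaperonin and lie head to head on chromosome 1. The start site of Hspe1 is 216 bases from one RefSeq start site of Hspd1 on the opposite strand, and the stretch printed for Hspe1, with its run of 18 matching bases, lies between them. Another annotated start site of Hspd1 lies 95 bases past that of Hspe1. The pair shared its highest and its lowest array, but not the order of the arrays between. Hspd1 was at 1787, 2352, 1401 and 1931, and Hspe1 at 3265, 3604, 2392 and 2901. Both were highest in MIST1-null neck cells and lowest in wild-type zymogenic cells.

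For Hspd1 the zymogenic minus neck difference was -0.35 in wild-type and -0.28 in MIST1-null mice, and for Hspe1 it was -0.45 and -0.31. The genotype differences were 0.40 in neck and 0.46 in zymogenic cells for Hspd1, and 0.14 and 0.28 for Hspe1. The other probe set of each gene gave the same signs. All of these are well under 2-fold and of a size common on these arrays, where the median absolute difference over all detectable genes was 0.28 to 0.42 per comparison.

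Hsp90aa1, the stress-responsive cytosolic HSP90, read 1347, 1542, 1036 and 1561. The wild-type zymogenic array was low with each of 3 probe sets, and the MIST1-null minus wild-type difference in zymogenic cells was 0.59, 0.58 and 0.37 by probe set. Hspa8, the constitutive HSP70, read 1997, 2433, 2146 and 1686 with its brightest probe set, which puts MIST1-null zymogenic cells lowest. Its other probe sets read 1915, 2214, 1395 and 1942, and 1709, 2065, 1193 and 1781, which put wild-type zymogenic cells lowest. The sign of the zymogenic differences of Hspa8 therefore depends on the probe set, and processed copies of these genes in the genome make such probe sets uncertain.

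Over the 10 single-gene probe sets of Hspa8, Hsp90aa1, Hspd1 and Hspe1, 9 were lowest in the wild-type zymogenic array, where 29.8% of all detectable genes were lowest. In neck cells all 10 were higher in the MIST1-null array, by 0.13 to 0.42, where 5506 of 10966 detectable genes were above 0. These counts were made after the values were seen. They are over probe sets of 4 genes, while the background is over genes, and probe sets of 1 gene read the same transcripts. Counted by gene, 3 of the 7 detectable heat shock members had their minimum in wild-type zymogenic cells, namely Hsp90aa1, Hspd1 and Hspe1. Hsph1 and Hspa1a had theirs in wild-type neck cells, and Hspa8 and Bag3 in MIST1-null zymogenic cells. Of the 9 parietal cell markers, 8 had their minimum in wild-type zymogenic cells. Atp4b read 2484, 2417, 1202 and 1945, and Kcne2 read 991.6, 1009, 499.9 and 1038. The exception, Hdc, read 24.8, 15.6, 68.0 and 163.6, and is also an endocrine cell gene. Parietal cells are rich in mitochondria. The part of parietal cell RNA in the chaperone values was not tested.

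Set against all genes, the members were no more often 2-fold apart than the rest. In neck cells, MIST1-null against wild-type, 0 of 20 detectable members were 2-fold higher and 0 lower, where 1.89% and 2.40% of all detectable genes were. In zymogenic cells the counts were 2 of 26 higher (Atf3 and Dusp1) and 0 lower, against 5.15% and 5.23%. For zymogenic against neck cells of wild-type mice they were 2 of 25 higher (Ier3 and Hspa1a) and 1 lower (Dusp1), against 6.27% and 6.78%. In MIST1-null mice they were 2 of 24 higher (Jun and Atf3) and 0 lower, against 4.90% and 4.80%. Counts of 0 to 2 in lists of this size are near those shares. In the comparisons named, Atf3, Dusp1 and Hspa1a reached the detection level only in the array where they were higher.

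The median difference over detectable members was 0.02 for genotype in neck cells and 0.28 in zymogenic cells, and -0.02 and 0.20 for zymogenic against neck in wild-type and MIST1-null mice. The medians over all detectable genes in the same comparisons were 0.003, 0.04, 0.02 and 0.05. By class, the early response members had -0.12, 0.28, -0.10 and 0.48 and the heat shock members 0.24, 0.28, 0.10 and -0.05. Members that reached the detection level only in the array where they were high, such as Atf3 and Fosb, enter these medians, which therefore describe and do not test the list.

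The cell type order in both genotypes uses all 4 arrays. Both zymogenic arrays lay above both neck arrays in 7 of 27 members detectable in any array, namely Jun, Egr2, Klf2, Nr4a1, Ier3, Gadd45a and Hspa1a, against 23.5% of all genes. Both neck arrays lay above both zymogenic arrays in 5, namely Myc, Ier2, Zfp36, Dusp1 and Hspe1, against 19.4%. By genotype, both MIST1-null arrays lay above both wild-type arrays in 4 members, Atf3, Hsph1, Hsp90aa1 and Hspd1, against 16.5%, and below them in 2, Egr1 and Bag3, against 15.6%. Read against those shares, the first 3 counts are near the background and the last is below it. Klf2, Nr4a1 and Hspa1a reached the detection level only in zymogenic arrays, and Ier2 only in neck arrays. Atf3 reached it only in a MIST1-null array and Egr1 only in a wild-type array. Such members entered through the side where they were high, so these orders describe and do not test the list. The MIST1-null zymogenic array was the highest of the 4 for 9 of the 20 detectable early response members, where it was the highest for 27.4% of all genes, and the MIST1-null neck array was the lowest for 8 of the 20, against 25.6%. Atf3 and Fosb entered the 20 only through the MIST1-null zymogenic array, so these counts describe and do not test the list. Of the 7 detectable heat shock members, that array was the highest for 2, and the MIST1-null neck array was the lowest for 0.

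**Figure D3:**
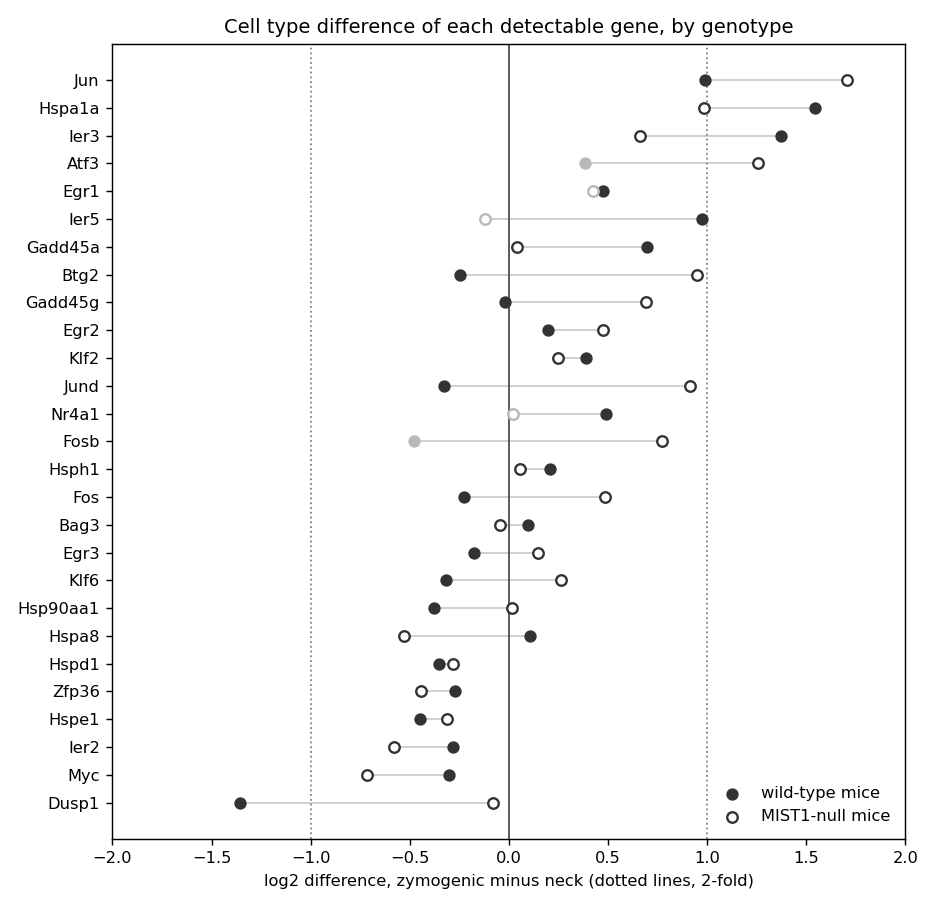
Log2 difference of zymogenic minus neck cells for the 27 members detectable in at least 1 array, in wild-type mice (filled) and MIST1-null mice (open), ordered by the mean of both; grey symbols mark pairs in which neither array reached the detection level, and each point is 1 array against 1 array. Jun, Hspa1a and Ier3 lie to the right in both genotypes, Dusp1 lies at -1.36 in wild-type mice only, and most other genes lie within 2-fold of 0.

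The wider pathway was read from lists of 143 further genes, of which 138 were measured. In neck cells, MIST1-null against wild-type, none of 107 detectable genes was 2-fold apart. In zymogenic cells 6 of 116 were higher in MIST1-null mice and 3 lower. For zymogenic against neck cells 7 of 117 were higher and 9 lower in wild-type mice, and 6 of 111 higher and 5 lower in MIST1-null mice. Only the first comparison lay clearly under the shares over all genes given above.

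Among kinases and factors upstream of the early genes, 3 of 19 detectable genes were 2-fold higher in MIST1-null than in wild-type zymogenic cells and 0 lower, where 5.15% and 5.23% of all genes were. Mapk8, which encodes the Jun kinase JNK1, read 62.5, 118.0, 29.1 and 94.8. Mapkapk2, a kinase downstream of p38, read 124.8, 178.1, 56.7 and 153.7, and Map2k4, which activates JNK, read 70.6, 70.2, 38.4 and 80.5. Each had the wild-type zymogenic array alone as its lowest value, as Dusp1 did. The MIST1-null minus wild-type differences in zymogenic cells were 1.70, 1.44 and 1.07. Of the 19 genes, 14 were above 0 in that comparison, with a median of 0.29. Over all detectable genes 6257 of 11826 were above 0, with a median of 0.04. Among the 5 genes of the list below 0 were related kinases. Mapk9, which encodes JNK2, read 145.0, 121.0, 205.8 and 116.7, and Mapk14, which encodes p38 alpha, read 54.4, 61.9, 62.1 and 52.3, so both were highest in the wild-type zymogenic array. Mapk9 and Mapk14 are named after their values were seen.

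The transcription factors that drive the members stayed under 2-fold, and 1 coactivator passed it. Creb1 read 260.9, 268.8, 275.4 and 335.4, and Srf read 33.96, 27.4, 44.0 and 53.8. The zymogenic minus neck difference of Srf in MIST1-null mice was 0.97, just under 2-fold, with both neck values under the detection level. Hsf2, a partner of heat shock factor 1, read 72.4, 81.8, 67.0 and 62.4. Mrtfb, a coactivator of serum response factor, differed by -1.44 for zymogenic against neck cells of MIST1-null mice, at 70.1, 118.4, 74.7 and 43.8. Hsf1 had no single-gene probe set.

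Of 38 other immediate early genes measured, 23 to 26 were detectable per comparison. By genotype, 0 of 23 were 2-fold apart in neck cells, against 1.89% higher and 2.40% lower over all genes. In zymogenic cells 0 of 26 were higher and 1 lower, against 5.15% and 5.23%. For zymogenic against neck, 2 of 26 were higher and 1 lower in wild-type mice, against 6.27% and 6.78%. In MIST1-null mice 1 of 24 was higher and 1 lower, against 4.90% and 4.80%. Plk2 read 53.5, 48.9, 99.3 and 39.8, Fosl2 read 33.5, 39.7, 73.7 and 40.5, and Klf10 read 25.7, 31.7, 52.8 and 33.95. In all of them the wild-type zymogenic array was the high one, the reverse of Dusp1. Sgk1 read 59.4, 65.0, 27.7 and 47.6, with that array low. Cebpb read 36.0, 24.8, 50.8 and 50.2, and Dusp6, a phosphatase of ERK kinases, read 40.9, 54.2, 30.3 and 26.6.

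Of 37 other heat shock genes and co-chaperones, 0 of 32 detectable were 2-fold apart by genotype in neck cells. In zymogenic cells 2 of 36 were higher and 2 lower, where 5.15% and 5.23% of all genes were. For zymogenic against neck, 3 of 36 were higher and 2 lower in wild-type mice, against 6.27% and 6.78%. In MIST1-null mice 3 of 32 were higher and 0 lower, against 4.90% and 4.80%. Cryab, a small heat shock protein that is abundant in muscle, read 32.8 and 26.1 in neck and 211.4 and 148.2 in zymogenic cells, differences of 2.69 and 2.50. Its neighbour Hspb2, also a muscle gene, read 26.0, 31.6, 133.5 and 39.9. The smooth muscle actin gene Acta2 had the cell type order of Cryab, at 60.7, 33.1, 274.1 and 246.0, and the part of muscle cell RNA in Cryab was not tested. Hspa4l, an HSP110 relative, read 71.0, 93.4, 59.0 and 208.3, highest in MIST1-null zymogenic cells by 1.82 over wild-type. Bag4 (67.2, 42.2, 25.2 and 55.8), Fkbp5 (91.6, 70.6, 112.7 and 47.5), Hspa14 (147.0, 98.4, 66.7 and 71.4), Hspa13 (48.6, 75.5, 106.0 and 104.0) and Hspa12a (65.5, 40.1, 62.5 and 82.8) each passed 2-fold in 1 or 2 comparisons.

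Other cytosolic chaperone genes, named after their values were seen, differed in how far they varied. Hspa4 read 809.6 to 958.5 and Stip1, the adaptor between HSP70 and HSP90, 203.3 to 229.2. The 8 genes of the cytosolic chaperonin CCT had medians of 0.08, -0.11, -0.17 and -0.12 in the 4 comparisons, and none was 2-fold apart. Among them Cct6a read 273.1, 530.1, 292.9 and 511.8, higher in MIST1-null cells by 0.96 in neck and 0.81 in zymogenic cells, and Tcp1 read 316.5, 353.4, 237.5 and 381.1. Bag1, an HSP70 nucleotide exchange factor, read 1539, 1876, 1265 and 1143. Hspa9, the mitochondrial HSP70, read 676.8, 699.2, 409.4 and 675.7, with the wild-type zymogenic array low as it was for Hspd1 and Hspe1. Ptges3, an HSP90 co-chaperone, read 1569, 2026, 1226 and 1973, in the same order as Hspd1.

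**Figure D4:**
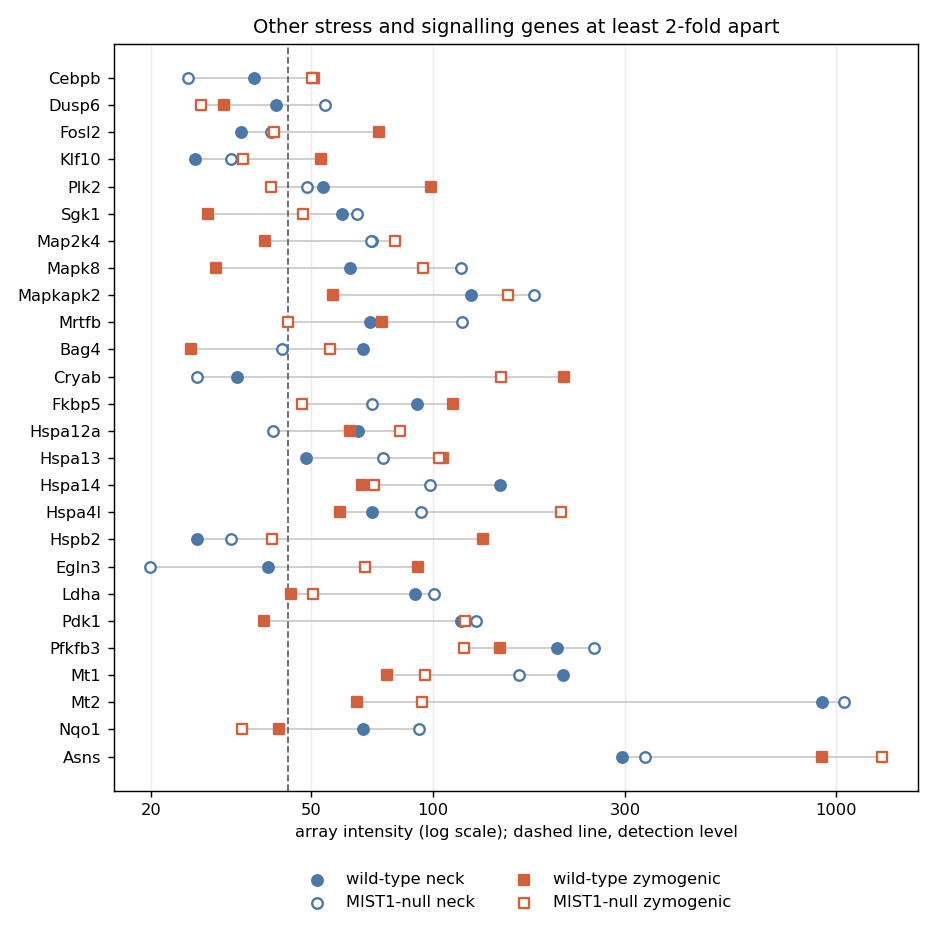
Array intensity (log scale) of the genes of other stress and signalling lists that were at least 2-fold apart in a comparison, grouped from top to bottom as immediate early, upstream kinase, heat shock, hypoxia, oxidative and integrated stress genes; symbols are as in the plot of early response genes. Mt2 and Mt1 are higher in both neck arrays, Cryab, Egln3 and Asns are higher in both zymogenic arrays, and Mapk8, Mapkapk2 and Pdk1 have the wild-type zymogenic array alone at the left.

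Genes of other acute stresses were read beside the members. Mt2, a metallothionein induced by metals and glucocorticoids, had the largest difference among these stress and signalling genes, at 922.4 and 1046 in neck and 65.0 and 93.9 in zymogenic cells, differences of -3.83 in wild-type and -3.48 in MIST1-null mice. Mt1 read 210.9, 163.9, 77.0 and 95.5. Nqo1, an oxidative stress enzyme, read 67.2, 92.6, 41.7 and 33.7. Hmox1, the inducible heme oxygenase, read 42.1, 32.5, 38.9 and 32.4, never reaching the detection level. Hmox1, and Vegfa, Ddit3 and Atf4 of the lists that follow, are named after their values were seen.

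Among hypoxia genes, which respond to loss of blood supply, Pdk1 read 117.5, 127.8, 38.1 and 120.7, Ldha 90.4, 100.7, 44.4 and 50.5, Pfkfb3 203.4, 251.5, 147.1 and 119.8, and Egln3 39.2, 19.9, 92.1 and 67.9. By genotype, 9 of 12 detectable genes of this list were above 0 in neck and 9 of 14 in zymogenic cells, with medians of 0.14 and 0.26. For zymogenic against neck, 5 of 14 were above 0 in wild-type and 7 of 14 in MIST1-null mice, with medians of -0.13 and 0.001. Of all detectable genes, 5506 of 10966 in neck and 6257 of 11826 in zymogenic cells were above 0 by genotype. By cell type they were 6080 of 11778 in wild-type and 6105 of 11322 in MIST1-null mice. Vegfa read 101.1, 130.4, 94.8 and 127.6. Of the integrated stress response genes, Asns, asparagine synthetase, read 294.2, 335.9, 927.0 and 1302, while Ddit3 read 109.7, 88.9, 81.3 and 121.0 and Atf4 read 55.0, 40.5, 80.7 and 78.7.

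Handling of the tissue bears on every array here. Per the design text, stomachs were removed at death, flushed, filled with embedding compound, frozen, sectioned and stained in water-based solution before capture, and no array of unhandled tissue was among the samples. A level shared by all 4 arrays and set by handling therefore cannot be told apart from the resting level of the cells, and a handling difference between pools cannot be told apart from a difference between groups. Neck and zymogenic cells of a genotype come from the same kind of section, but the animals behind each pool were not named in the sources. No member's level in unhandled cells is known from these data, and the part of handling in the values was not tested.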

How the data were processed

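The authors deposited a linear intensity for each probe set of 4 arrays, compared in dChip per the series design text. Background correction, probe summary and scaling were steps not given in the sources used here. With 1 array per group, no error could be estimated. Of 35512 probe sets, 21789 had 1 gene in the platform annotation and were used. The highest-mean probe set stood for a gene. Intensities under 1 were set to 1 before log2, and counts were made at 2-fold. Promoter windows came from RefSeq (GRCm38.p6), of which the 250 bases before the start site were searched for 27 of the members. Every member was named or counted, and other lists were named at 2-fold or more, up to 5 genes each way. The members and lists were chosen with earlier results of these data known. The code (Python 3.11.15, pandas 2.3.3) was tested on simulated data. Alternatives were 2 scalings, pseudocounts of 16 and 32, no or a 75th percentile detection level, the mean over probe sets and a 1.5-fold threshold.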

Additional observations from a re-analysis of the deposited data

Results flagged for a closer look

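For 3 members that were detectable in both genotype comparisons, the genotype difference had opposite signs in the cell types and differed by 2-fold or more between them. MIST1-null minus wild-type was 1.24 in zymogenic and -0.03 in neck cells for Dusp1, a gap of 1.28, and its neck value was 0.02 with arrays centred on their median. It was 0.26 and -0.99 for Jund, a gap of 1.24, and 0.57 and -0.62 for Btg2, a gap of 1.19. Fosb (0.68 and -0.57) and Ier5 (-0.77 and 0.32) also differed by 2-fold or more with opposite signs, but both of their neck values lay under the detection level. Each gap rests on 4 single arrays and was not tested.

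Data outside the comparisons also differed. Both probe sets that the annotation gives to Snord14d, Snord14c and Hspa8 together were higher in MIST1-null than in wild-type neck cells, by 1.09 and 1.14. The Snord14 genes are small nucleolar RNAs processed from Hspa8 introns. These probe sets read 36.4 and 35.7 in wild-type neck, 77.2 and 79.0 in MIST1-null neck, 64.4 and 64.7 in wild-type zymogenic and 90.5 and 91.4 in MIST1-null zymogenic cells, so wild-type neck cells alone were under the detection level. The single-gene Hspa8 probe sets differed by 0.21 to 0.28 in that comparison.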

How the results depend on the processing

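The counts of members 2-fold apart are small and moved with the settings. In neck cells by genotype, 0 became 1 with arrays centred on their median (Ier3 at 1.05) and 1 with no detection level, and 5 at 1.5-fold. In zymogenic cells by genotype, 2 became 1 at the 75th percentile detection level, 0 with a pseudocount of 16 or 32, and 7 at 1.5-fold. For zymogenic against neck in MIST1-null mice, 2 became 1 at the 75th percentile level and with either pseudocount, and 9 at 1.5-fold. In wild-type mice, 3 became 1 with a pseudocount of 32 and 6 at 1.5-fold. Members without overlap between cell types went from 12 to 7 at the 75th percentile level. Over the settings run, the median member difference ranged from -0.03 (no detection level) to 0.20 (75th percentile level) by genotype in neck cells, where it changed sign, and from 0.20 to 0.31 in zymogenic cells. For zymogenic against neck it ranged from -0.25 (75th percentile level) to -0.004 in wild-type and from 0.02 (75th percentile level) to 0.26 in MIST1-null mice. Of 616 member differences recomputed, 606 kept their side of 2-fold and their sign where 2-fold, 8 lost 2-fold, all with a pseudocount, 2 gained it with a scaling, and 0 reversed. Most were under 2-fold to begin with and by this rule could not be lost or reversed. Sign changes under 2-fold counted as kept, such as 5 of 92 with arrays centred on their median. Hspa8 by genotype in zymogenic cells went from -0.35 to 0.24 with the mean over probe sets. No paired analysis was possible because each group has 1 array and the labels give no replicate numbers, and no array could be left out. Values near the detection level limit the sizes for most early response genes.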
